A study of Homo sapiens with 6 samples.

Results

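The transforming growth factor beta (TGF-beta), activin and bone morphogenetic protein (BMP) pathway was examined as 45 genes, chosen by gene symbol and all found in a count table of 60623 genes. The libraries were labelled PANC-1, an established human line derived from a pancreatic ductal carcinoma. In 3 of them the cells carried a short hairpin RNA against STN1, a subunit of the telomere-capping CST complex, and in the other 3 a control hairpin, with the column names Sh4 and scramble. The genotype label of the hairpin libraries reads STN1, STN2 and STN3 knockdown in turn, while every title reads shSTN1, and the control libraries are labelled WT. All cells were grown in DMEM with fetal bovine serum. Whether a group was 1 clone or a pool is not given in the sources used here. The labels call the libraries of a group biological replicates without saying that they came from separate cultures, and each p-value rests on library-to-library spread that may be technical.

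Ligands of this family are secreted dimers. They bring together type II and type I receptor kinases, which phosphorylate receptor-activated SMAD proteins. SMAD2 and SMAD3 serve TGF-beta and activin, SMAD1, SMAD5 and SMAD9 serve BMPs, and each pairs with SMAD4 to act on genes in the nucleus. In the pancreas, TGF-beta signalling restrains the growth of ductal epithelium and promotes invasion in many carcinomas, and SMAD4 and TGFBR2 are recurrently lost in pancreatic ductal tumours.

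STN1 itself had 387, 346 and 278 reads in the control-labelled libraries and 303, 306 and 275 in the shSTN1-labelled ones (log2 fold change -0.15, edgeR adjusted p = 0.253), so its mRNA did not separate the groups. The summed level of 9 ductal carcinoma line markers was 1037 to 1084 CPM (read counts scaled to library size) in the control-labelled libraries and 6040 to 6220 CPM in the shSTN1-labelled ones, and that of 9 genes of the embryonic kidney line HEK293 was 843.7 to 915 against 85.21 to 89.26 CPM. Against the control-labelled libraries, 8 of the kidney line genes fell and 1, PAX2, rose. The ductal sum was carried by KRT8, KRT18 and KRT19, at means of 606, 153 and 175 against 3606, 965 and 982 CPM. All 8 tested ductal markers were higher, but KRT7 had a mean of only 2.77 CPM in the shSTN1-labelled libraries. S100P was too low to test. The kidney line sum was carried mainly by IRS4, CDKN2A and NEFM, at means of 330, 192 and 136 CPM in the control-labelled libraries. CDKN2A, itself 1 of the 9 kidney line genes, is known to be lost in PANC-1. It had 11753 reads in the control-labelled libraries and 0 in the shSTN1-labelled ones. The cells of the control-labelled libraries therefore go against their label, and a difference in cells cannot be told apart from an effect of the hairpin for any gene below. Markers of other cell types were low: leukocyte markers summed to at most 2.099 CPM, endothelial markers to at most 2.491 CPM, and acinar and endocrine markers to at most 0.2709 CPM. The fibroblast and stellate list summed to 73.39 to 88.59 against 169.4 to 182.9 CPM, carried by COL1A1, COL3A1 and THY1, with LUM at a mean of 0.482 CPM and DCN at 0.108 CPM in the control-labelled libraries and both lower in the others. The part of these differences in the results below was not tested.

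Of the 45 members, 43 passed the filter on low counts, and GREM1 and FST did not. Of these 43, 17 rose and 17 fell from the control-labelled to the shSTN1-labelled libraries at an edgeR adjusted p under 0.05. That is 79.1% of those tested, where 74.1% of all 17451 genes tested passed (35.6% higher and 38.5% lower), so a call alone says little about a member. At a threshold of 0.01 the call was kept by 33 members, against 66.6% of all genes. At least 2-fold differences were found for 12 members upward and 11 downward, 53.5% in all, against 34.6% of all genes (15.7% upward and 19.0% downward). The median size of the difference was 1.07 on the log2 scale over the members and 0.68 over all genes tested, while the median signed difference was -0.01 and -0.03. In 34 of the 43 members the groups did not overlap, against 75.6% of all genes. Counts by role below are to be read against these shares of all genes. Libraries held 17357223 to 23336942 reads, of which the members took 0.269% to 0.28% in the control-labelled and 0.312% to 0.318% in the shSTN1-labelled libraries. Without ID1 alone, the members took 0.2388% to 0.2545% and 0.2609% to 0.2663%, so a few abundant members weigh on this share.

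**Figure D1:**
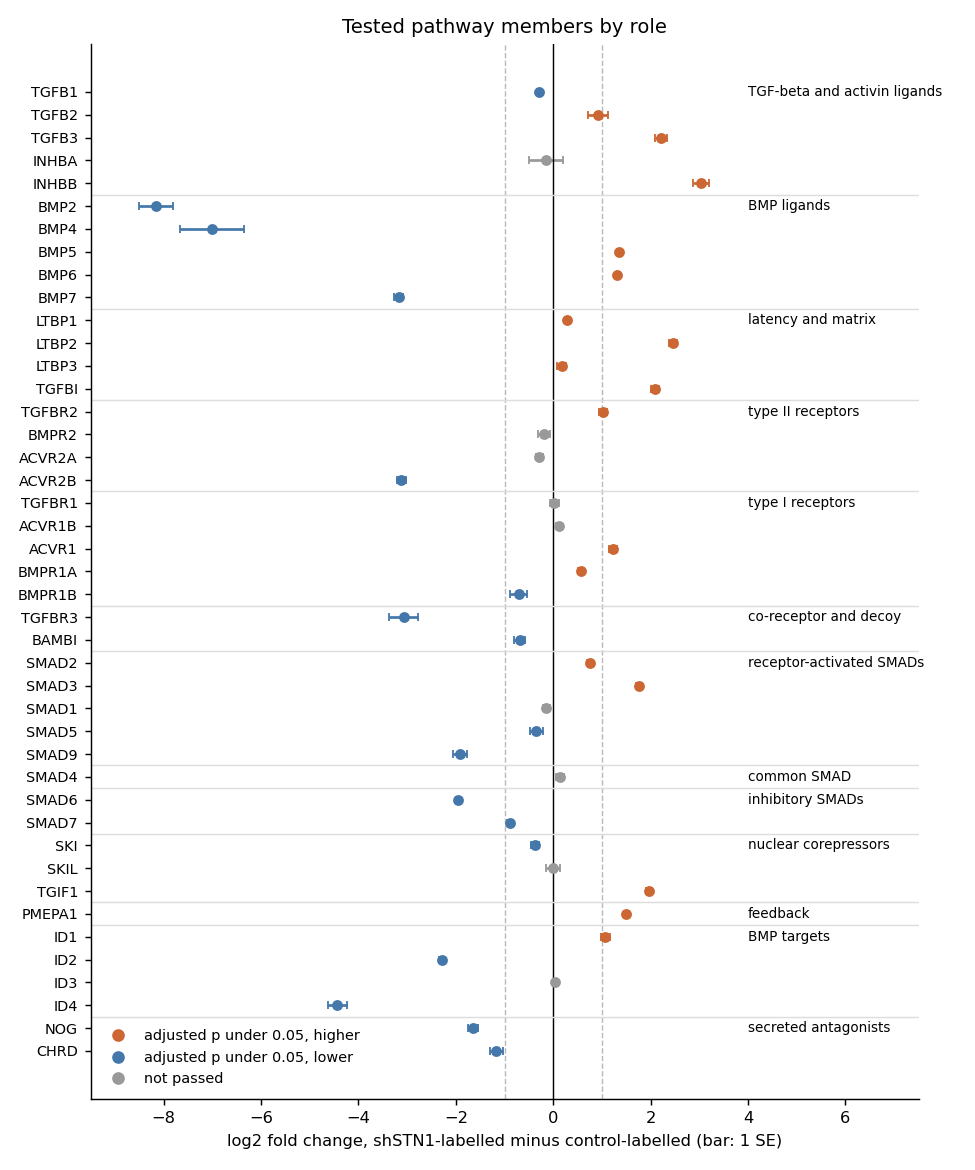
Log2 fold change of each of the 43 tested members, grouped by role, with bars of 1 SE from the libraries of that gene alone. Colours mark members past the adjusted p of 0.05, and dashed lines mark 2-fold. BMP2 and BMP4 lie at -8.16 and -7.01, and INHBB has the highest value, 3.04.

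Promoters are shown for 5 members that differed at least 2-fold, to set the start regions of raised and lowered genes side by side. Each is the 250 bases before the start in RefSeq (GRCh38.p14), 5′ to 3′ on the gene's strand, with capitals for CAGAC and GTCTAGAC (SMAD boxes), GGCGCC (a GC-rich SMAD motif), GGGCGG (the GC box) and TATAAA on either strand. ID1 (chr20:31605039-31605288, plus strand), INHBB (chr2:120345886-120346135, plus strand) and TGFB3 (chr14:75983012-75983261, minus strand, the outermost of its starts) rose, and ID4 (chr6:19837120-19837369, plus strand) and SMAD6 (chr15:66701986-66702235, plus strand) fell.
ID1: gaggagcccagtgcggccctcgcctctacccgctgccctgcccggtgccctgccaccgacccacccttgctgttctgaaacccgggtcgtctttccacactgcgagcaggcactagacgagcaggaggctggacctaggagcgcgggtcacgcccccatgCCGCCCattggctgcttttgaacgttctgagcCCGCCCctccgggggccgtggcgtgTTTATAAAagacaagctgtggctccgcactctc
INHBB: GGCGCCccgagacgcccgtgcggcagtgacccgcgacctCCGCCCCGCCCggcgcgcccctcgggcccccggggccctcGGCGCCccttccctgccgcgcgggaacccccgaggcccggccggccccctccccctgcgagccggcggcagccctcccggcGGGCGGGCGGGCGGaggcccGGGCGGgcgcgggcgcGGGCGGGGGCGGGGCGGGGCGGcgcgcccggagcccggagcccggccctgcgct
TGFB3: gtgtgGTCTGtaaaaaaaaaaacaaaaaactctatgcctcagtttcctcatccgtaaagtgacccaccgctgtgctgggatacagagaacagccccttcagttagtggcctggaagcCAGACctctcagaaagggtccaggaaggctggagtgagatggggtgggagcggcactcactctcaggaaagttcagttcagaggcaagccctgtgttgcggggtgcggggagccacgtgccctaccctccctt
ID4: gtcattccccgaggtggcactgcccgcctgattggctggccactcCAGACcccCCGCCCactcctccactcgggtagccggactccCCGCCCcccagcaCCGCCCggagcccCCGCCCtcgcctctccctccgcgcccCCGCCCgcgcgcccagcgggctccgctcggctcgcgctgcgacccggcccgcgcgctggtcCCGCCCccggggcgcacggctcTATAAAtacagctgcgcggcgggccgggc
SMAD6: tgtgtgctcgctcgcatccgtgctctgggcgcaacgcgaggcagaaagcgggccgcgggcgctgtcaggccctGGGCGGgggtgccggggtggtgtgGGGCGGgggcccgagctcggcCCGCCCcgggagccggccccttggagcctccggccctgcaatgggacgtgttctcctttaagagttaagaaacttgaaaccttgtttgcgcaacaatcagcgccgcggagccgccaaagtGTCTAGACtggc

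The palindromic SMAD box GTCTAGAC lies 12 to 5 bases before the RefSeq start of SMAD6, an inhibitory SMAD that BMP signals induce. In GENCODE 29 the gene starts 8 bases further upstream, within this motif. Among 81 starts of the 41 members in the promoter table it was found at 1, and among all 35116 starts at 64 (0.182%). The shorter CAGAC, which GTCTAGAC does not contain, was found at 39.5% of the members' starts and 38% of all starts, once in ID4 and at 2 places in TGFB3. GGCGCC was found at 23.5% of the members' starts and 16.4% of all starts, but within 100 bases of the start the order turned, to 6.17% and 8.57%. The GC box was found at 56.8% and 42.6%. The median share of G and C was 63.2% in the members' windows and 58.0% in all windows. Its part in the GGCGCC and GC box shares was not tested. INHBB had 10 GC boxes, some overlapping, in a window of 89.6% G and C. ID1, which rose, and ID4, which fell, each had TATAAA within 33 bases of the start, a motif at 12.3% of the members' starts and 10.7% of all. These matches are letters in a window and show no binding. Members with several starts count more than once in these shares.

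Among the TGF-beta and activin ligands, INHBB and TGFB3 rose, TGFB2 rose by less than 2-fold, and TGFB1 fell slightly. INHBB encodes a subunit of activin B and lies on chromosome 2, positions 120346143 to 120351808 (GRCh38, as all positions here). It stood at 6.02, 4.56 and 4.06 CPM in the control-labelled libraries and at 40.5, 39.6 and 40.8 CPM in the shSTN1-labelled ones. The groups lay far apart, with a log2 fold change of 3.04 (SE 0.165, edgeR adjusted p = 1.08e-20). TGFB3, the isoform noted for its part in palate closure, stood at 5.87, 4.38 and 5.42 against 25, 22.8 and 24.9 CPM (log2 change 2.21 with SE 0.131, adjusted p = 2.12e-16 by edgeR). TGFB1, the main isoform in most tissues, stood at 84.4, 81.2 and 88.3 against 67.5, 71.0 and 68.8 CPM (log2 change -0.29 with SE 0.041, adjusted p = 5.83e-04 by edgeR). Every shSTN1-labelled library was below every control-labelled one, but the step was 1.22-fold. TGFB2 had a log2 fold change of 0.92, uncertain because it shares 26.6% of its exon bases with TGFB2-OT1. INHBA, the subunit of activin A, was near the limit of detection at 0.342 to 0.761 CPM over all 6 libraries and did not pass (log2 fold change -0.15, limma-voom 95% interval -1.10 to 0.75).

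Per length of annotated exons, TGFB1 remained the leading isoform in all 6 libraries. Its share of the summed level of TGFB1, TGFB2 and TGFB3 was 94.1% ± 0.549 (SD, n = 3) in the control-labelled libraries and 78.0% ± 0.569 in the shSTN1-labelled ones. The share of TGFB3 was 3.82% ± 0.465 against 18% ± 1.25, and that of TGFB2 was 2.05% ± 0.323 against 3.93% ± 0.753. For each of these isoforms the shares did not overlap between groups.

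BMP ligands moved apart. BMP2, BMP4 and BMP7 fell and BMP5 and BMP6 rose, each by at least 2-fold. BMP2, an inducer of bone and cartilage, stood at 120, 143 and 114 CPM in the control-labelled libraries and at 0.244, 0.412 and 0.681 CPM in the shSTN1-labelled ones. This came from 7788 against 26 reads, a ratio of 291 (95% interval 199 to 446 for counting error only), with an edgeR adjusted p of 6.47e-29. BMP4, a close relative of BMP2, stood at 10.1, 11.3 and 13.3 CPM against 0, 0 and 0.284 CPM. Its 709 reads met 5, all in shSTN1 replicate 3, a ratio of 138 (95% interval 58.9 to 426). Without that library BMP4 had 0 reads in the shSTN1-labelled group, and a floor of 3 reads over the group gave 162-fold. This value leaves out the only shSTN1-labelled library with BMP4 reads. It lies above the ratio from all libraries, so it is no lower bound on the group difference.

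BMP7, which acts in kidney and eye development, stood at 57.5, 53.0 and 55.4 against 6.79, 5.63 and 5.90 CPM (log2 fold change -3.18, SE 0.0865). BMP6, a regulator of hepcidin and iron in the liver, stood at 28.6, 28.4 and 28.7 against 70.1, 70.8 and 72.4 CPM (log2 fold change 1.32, SE 0.0145). BMP5, a close relative of BMP6 and BMP7, stood at 2.94, 3.00 and 2.98 against 7.62, 7.97 and 7.26 CPM (log2 fold change 1.36, SE 0.0392). In each of the 5 BMP genes the groups were separate, as they were in 75.6% of all genes tested. Per length, BMP2 had the highest level of the 5 in the control-labelled libraries, at 34.9 ± 4.23 RPKM (CPM per kilobase of exon), and BMP6 had the highest in the shSTN1-labelled libraries, at 25.6 ± 0.42 RPKM against 0.124 ± 0.0612 for BMP2. The edgeR adjusted p of these 5 genes lay between 6.47e-29 for BMP2 and 2.04e-08 for BMP5.

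**Figure D2:**
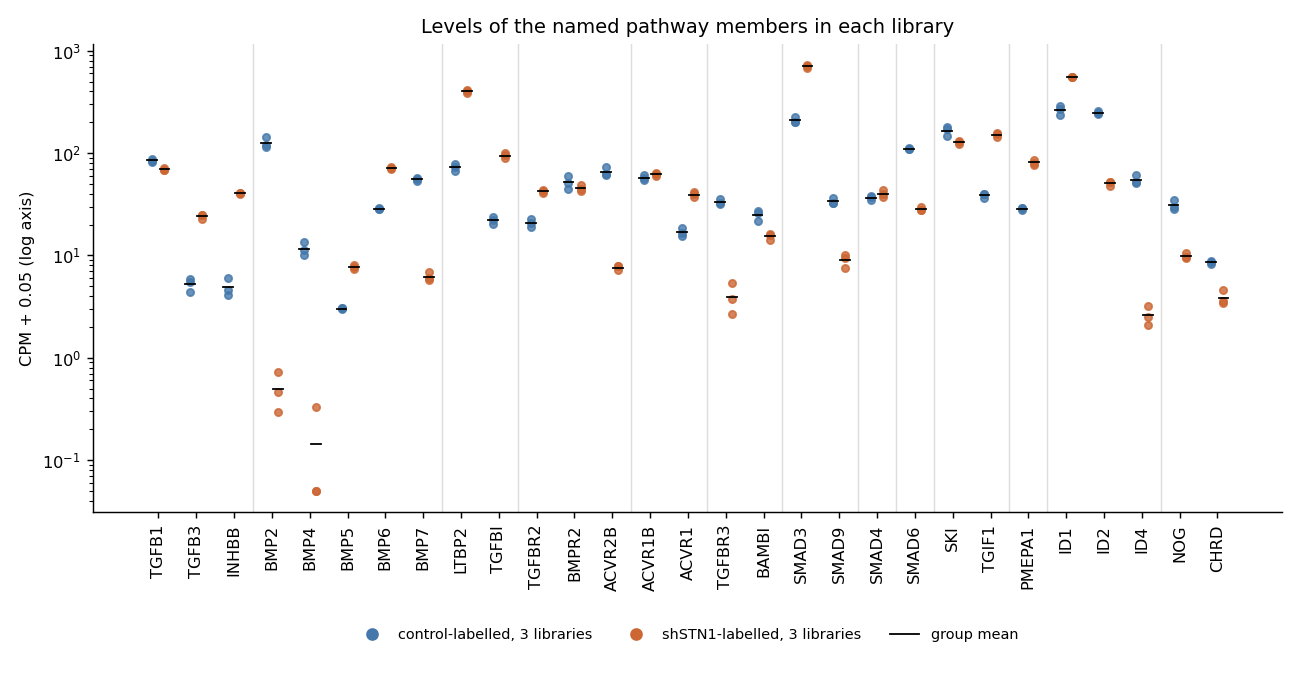
CPM of the named members in each library, on a log axis with 0.05 added so that libraries without reads can be drawn. Points are libraries and black lines are group means. Grey lines divide the roles. The shSTN1-labelled points of BMP2 and BMP4 lie under 1 CPM, and those of SMAD3 lie between 674 and 721 CPM.

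The 4 genes of latency and matrix were all higher, where 35.6% of all genes tested were higher. Latent TGF-beta binding proteins tether inactive TGF-beta to the matrix. LTBP2, which binds fibrillin and, unlike its relatives, does not carry TGF-beta, stood at 66.4, 79.0 and 72.7 against 385, 415 and 404 CPM (log2 change 2.46 with SE 0.0789, adjusted p = 8.32e-25 by edgeR). TGFBI, a secreted matrix protein first found as a TGF-beta induced transcript, stood at 23.8, 20.4 and 22.2 against 99.2, 89.0 and 95.3 CPM (log2 change 2.10 with SE 0.079, adjusted p = 1.07e-20 by edgeR). These genes had no overlap between groups. LTBP1 differed by 1.22-fold and LTBP3 by 1.13-fold. The groups of LTBP3 overlapped (86.5 to 99.6 against 94.2 to 111 CPM), and its call, at an edgeR adjusted p of 0.0401, was lost in 9 of the 14 alternatives run.

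Receptor genes showed a mixed pattern, with 3 higher, 2 lower and 4 that did not pass. Of all genes tested, 35.6% were higher and 38.5% lower. TGFBR2, the type II receptor that binds TGF-beta, stood at 22.7, 20.9 and 18.7 CPM in the control-labelled libraries and at 43.6, 42.6 and 40.9 CPM in the shSTN1-labelled ones. Its groups were separate by about 2.04-fold (log2 change 1.03 with SE 0.0841, adjusted p = 2.04e-11 by edgeR). ACVR2B, a type II receptor for activins, stood at 63.0, 73.4 and 61.2 against 7.81, 7.10 and 7.77 CPM (log2 change -3.13 with SE 0.0924, adjusted p = 7.19e-23 by edgeR). The related ACVR2A was at 10.4 to 11.6 against 8.34 to 9.53 CPM and missed the threshold (edgeR adjusted p = 0.0513), although its groups did not overlap. BMPR2, the type II receptor for BMPs and the highest of its role in CPM over the 6 libraries, stood at 50.6, 59.4 and 44.8 against 42.7, 44.6 and 48.5 CPM. Its groups overlapped (log2 change -0.19 with SE 0.13, adjusted p = 0.0591 by edgeR), and 5 alternatives called it lower.

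Of the type I receptors, ACVR1 rose by more than 2-fold, BMPR1A rose and BMPR1B fell. ACVR1, a BMP and activin receptor mutated in fibrodysplasia ossificans progressiva, stood at 18.3, 15.6 and 16.5 against 39.6, 41.2 and 37.0 CPM (log2 change 1.23 with SE 0.082, adjusted p = 6.97e-13 by edgeR). BMPR1A, a main BMP type I receptor, had a log2 fold change of 0.56, and its relative BMPR1B had -0.71 at 2.67 to 5.59 CPM over all libraries. ACVR1B, the activin type I receptor, stood at 56.7, 60.7 and 54.9 against 64.3, 60.0 and 61.7 CPM. It did not pass (log2 fold change 0.11, limma-voom 95% interval -0.05 to 0.26). TGFBR1, the partner of TGFBR2, was at 33.1 to 37.0 against 33.1 to 39.6 CPM and did not pass either (log2 fold change 0.02, interval -0.17 to 0.20). For both genes the interval leaves out a 1.5-fold difference.

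The co-receptor TGFBR3 and the decoy receptor BAMBI fell. TGFBR3, or betaglycan, presents TGF-beta to TGFBR2 and helps inhibin block activin. It stood at 32.0, 35.7 and 32.3 against 3.71, 5.36 and 2.61 CPM (log2 change -3.07 with SE 0.296, adjusted p = 1.19e-18 by edgeR), with more spread among the shSTN1-labelled libraries than in the control-labelled ones in relative terms. BAMBI, which resembles a type I receptor without a kinase, stood at 21.6, 25.7 and 26.9 against 14.0, 16.2 and 15.7 CPM. Its groups were separate (log2 change -0.69 with SE 0.114, adjusted p = 1.36e-06 by edgeR).

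Of the SMADs of the TGF-beta branch, SMAD3 and SMAD2 rose. Of those of the BMP branch, SMAD9 and SMAD5 fell and SMAD1 did not pass. A difference between the branches was not tested. SMAD3, which binds DNA directly, stood at 200, 224 and 200 CPM in the control-labelled libraries and at 713, 674 and 721 CPM in the shSTN1-labelled ones (log2 change 1.75 with SE 0.0616, adjusted p = 9.04e-22 by edgeR). SMAD2 had a log2 fold change of 0.76. SMAD9, or SMAD8, stood at 32.2, 36.6 and 32.1 against 7.42, 9.35 and 10.1 CPM (log2 change -1.91 with SE 0.146, adjusted p = 5.78e-16 by edgeR), and SMAD5 had a log2 fold change of -0.35. SMAD1 was at 13.2 to 13.9 against 11.6 to 13.4 CPM (log2 fold change -0.14, limma-voom 95% interval -0.39 to 0.09).

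SMAD4, the partner shared by both branches and a tumour suppressor of the pancreas, stood at 34.4, 38.1 and 37.1 against 36.9, 43.8 and 39.7 CPM. The groups overlapped and it did not pass (log2 change 0.14 with SE 0.0833, adjusted p = 0.172 by edgeR, limma-voom 95% interval -0.04 to 0.31). SMAD4 was thus transcribed in every library.

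The inhibitory SMADs, which signals of the pathway induce and which shut receptors off, fell. SMAD6 stood at 109, 113 and 109 against 29.9, 27.8 and 27.5 CPM (log2 change -1.95 with SE 0.0411, adjusted p = 6.06e-21 by edgeR). SMAD7, which acts on TGF-beta receptors too, had a log2 fold change of -0.89 and was at 43.1 to 47.8 against 23.0 to 25.5 CPM. As shares of the summed per-length level of the 8 SMAD genes, SMAD3 took 36.0% ± 0.746 (SD, n = 3) in the control-labelled libraries and 77.8% ± 1.02 in the shSTN1-labelled ones. SMAD6 went from 20.3% ± 0.668 to 3.35% ± 0.173 and SMAD7 from 14.3% ± 0.874 to 4.94% ± 0.194. Shares sum to a fixed total, so a larger share of SMAD3 leaves less for the other genes. The share of SMAD4 thus went from 4.39% ± 0.114 to 3.09% ± 0.324, although its level did not pass. The share of SMAD2 overlapped between groups, at 1.74% ± 0.0664 and 1.89% ± 0.169, and is understated because its annotated exons span 36366 bases.

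**Figure D3:**
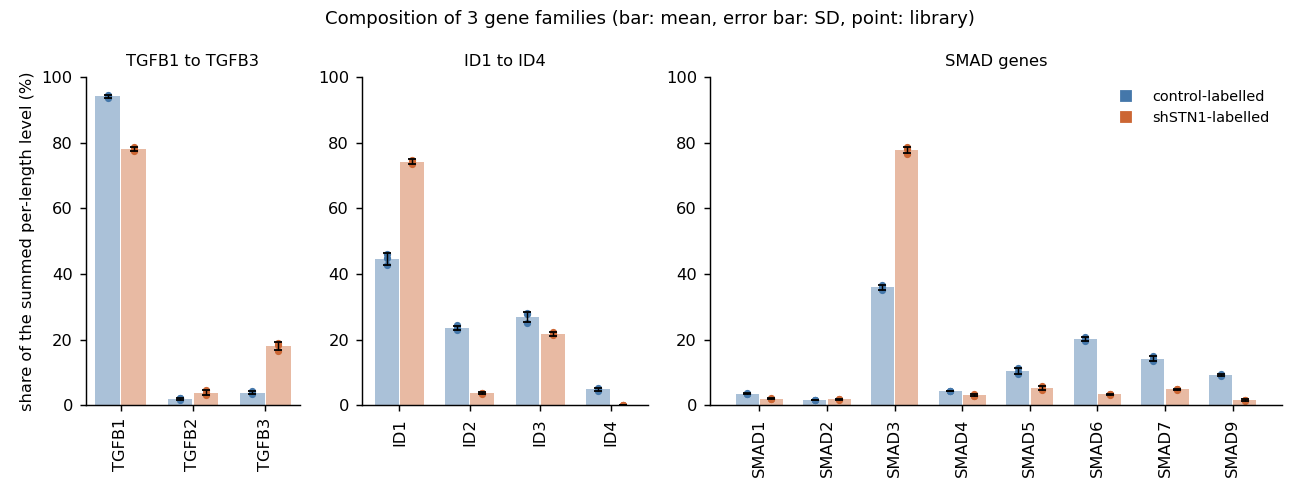
Share of the summed per-length level that each gene takes within TGFB1 to TGFB3, within ID1 to ID4 and within the 8 SMAD genes, in percent. Bars are means of 3 libraries, error bars are SDs and points are libraries. SMAD3 goes from 36.0% in the control-labelled libraries to 77.8%, and ID1 from 44.6% to 74.2%. Shares within a family sum to a fixed total.

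Nuclear corepressors went in different directions. TGIF1, a homeodomain protein that competes with coactivators on SMAD2 and SMAD3, stood at 39.5, 36.3 and 40.0 against 157, 144 and 154 CPM (log2 change 1.97 with SE 0.057, adjusted p = 1.28e-21 by edgeR). SKI, which holds SMAD complexes inactive, stood at 146, 178 and 171 against 132, 123 and 127 CPM (log2 change -0.38 with SE 0.0909, adjusted p = 1.66e-05 by edgeR). Its relative SKIL was at 21.7 to 30 against 24.9 to 26.3 CPM and did not pass (log2 fold change -0.01, limma-voom 95% interval -0.22 to 0.22). PMEPA1, a TGF-beta induced membrane protein that sequesters SMAD2 and SMAD3, stood at 28.7, 29.2 and 27.6 against 85.9, 76.9 and 79.8 CPM. It was separate between groups and rose (log2 change 1.5 with SE 0.0528, adjusted p = 2.87e-17 by edgeR).

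The ID genes, whose proteins bind basic helix-loop-helix factors and keep them off DNA, are classical BMP targets. They did not move together: ID1 rose, ID2 and ID4 fell, and ID3 did not pass. ID1 stood at 285, 234 and 267 CPM in the control-labelled libraries and at 549, 549 and 555 CPM in the shSTN1-labelled ones (log2 change 1.07 with SE 0.0847, adjusted p = 1.12e-15 by edgeR). ID2 stood at 260, 239 and 244 against 52.3, 51.8 and 47.8 CPM (log2 change -2.29 with SE 0.0554, adjusted p = 3.82e-24 by edgeR). ID4 stood at 61.6, 51.6 and 51.5 against 3.17, 2.02 and 2.44 CPM (log2 change -4.43 with SE 0.202, adjusted p = 6.44e-24 by edgeR). ID1, ID2 and ID4 had no overlap between groups. ID3 was at 224 to 241 against 231 to 244 CPM (log2 fold change 0.04, limma-voom 95% interval -0.08 to 0.16). Per length, ID1 made up 44.6% ± 1.79 of the summed ID level in the control-labelled libraries and 74.2% ± 0.705 in the shSTN1-labelled ones, and ID2 made up 23.6% ± 0.74 against 3.81% ± 0.182. The share of ID4 was 4.91% ± 0.355 and 0.18% ± 0.0405. The promoters printed above belong to the member of this family that rose and to the one with the largest fall.

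Secreted antagonists that could be tested fell. NOG, or noggin, which traps BMP2, BMP4 and BMP7, stood at 29.5, 28.5 and 34.4 against 10.4, 9.67 and 9.31 CPM (log2 change -1.65 with SE 0.0946, adjusted p = 9.82e-15 by edgeR). CHRD, or chordin, another BMP trap, stood at 8.61, 8.23 and 8.72 against 3.37, 3.53 and 4.54 CPM (log2 change -1.17 with SE 0.133, adjusted p = 1.83e-07 by edgeR). Both genes were separate between groups. FST, or follistatin, which binds activins, had 20, 27 and 6 reads against 1, 3 and 9, and its groups overlapped. GREM1, or gremlin, had 0 or 1 read in each library, which is too few to set a level.

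The wider pathway was described with 143 further genes in 7 lists, of which 118 could be tested. Of these, 42 were higher and 50 lower (78.0% called, against 74.1% of all genes), and 60 differed at least 2-fold (50.8%, against 34.6%). Of all genes tested, 35.6% were higher and 38.5% lower, and the counts of each list below are to be read against those shares. Of 31 tested TGF-beta and activin targets, 19 were higher and 9 lower (90.3% called, against 74.1% of all genes), with a median log2 fold change of 0.79. The list was not split into genes that the pathway raises and genes that it lowers. Its counts and median are therefore no measure of pathway output. The basement membrane collagen genes COL4A1 and COL4A2 fell, with log2 fold changes of -5.43 and -6.04 (edgeR adjusted p = 9.87e-25 and 4.19e-29).

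Of 14 tested further BMP targets, 0 were higher and 10 lower by edgeR at the adjusted p of 0.05, with a median of -2.22. The 71.4% called is close to the 74.1% of all genes, of which 38.5% were lower. The count of higher genes was also 0 by edgeR at an unadjusted p under 0.05, and by DESeq2 and limma-voom at the adjusted one. The list holds developmental transcription factors, and its counts and median are no measure of BMP pathway output. The BMP targets ID1, ID2, ID3 and ID4 lie outside it, with log2 fold changes of 1.07, -2.29, 0.04 and -4.43. HEY1 fell from 230 ± 7.75 to 8.57 ± 0.478 CPM (log2 fold change -4.75), and HAND1, a heart and trophoblast factor, from 44.1 ± 1.67 to 0.207 ± 0.196 CPM (-7.63). The homeobox genes MSX1 and DLX2 had log2 fold changes of -2.46 and -2.30. The edgeR adjusted p of these 4 genes was at most 5.40e-20.

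**Figure D4:**
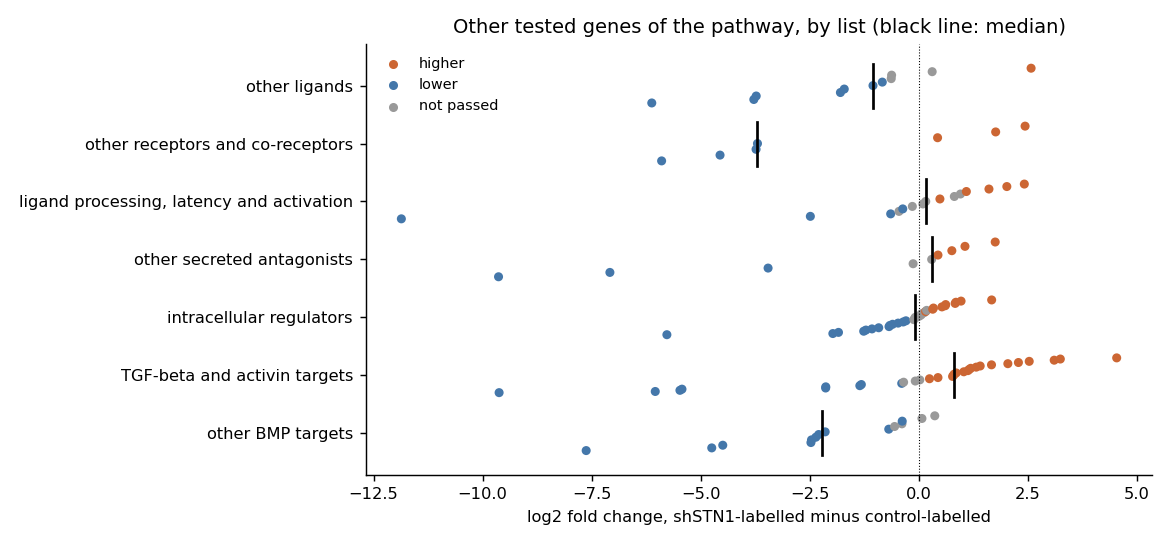
Log2 fold change of the 118 tested genes beyond the members, by list, with the median of each list as a black line. Colours mark genes past the adjusted p of 0.05. The median is 0.79 for TGF-beta and activin targets and -2.22 for further BMP targets. Neither median is a measure of pathway output.

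Among 11 tested further ligands, 1 was higher and 7 lower (median -1.05), and the 72.7% called is near the 74.1% of all genes. The one that rose was GDF15, a stress-induced hormone, from 24.6 ± 1.31 to 146 ± 4.87 CPM (log2 fold change 2.57). GDF7 had a log2 fold change of -6.12, GDF11, a relative of myostatin, -1.71 and AMH, the anti-Mullerian hormone, -1.05. Of 7 tested further receptors and co-receptors, 3 were higher and 4 lower, 100% called. CD109, a membrane protein that binds TGF-beta, had a log2 fold change of 2.43, and ENG, or endoglin, a co-receptor of endothelial cells, 1.76. RGMA, a BMP co-receptor, had -5.90 and AMHR2, the receptor of AMH, -3.73.

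Of 15 tested genes of ligand processing and activation, 5 were higher and 4 lower (60.0% called, median 0.16). Without shSTN1 replicate 3 the count of lower genes was 2. ITGAV, a chain of the integrins that release TGF-beta from its latent form, had a log2 fold change of 1.61 and the membrane protease MMP14 1.09. PCSK6, a convertase of the family's precursors, had -2.49. FBN2, or fibrillin-2, had 5245 control reads and 1 read in the shSTN1-labelled libraries, a ratio of 5104 (95% interval 916 to 201629). Of 9 tested further antagonists, 4 were higher and 3 lower (77.8% called, median 0.29). CRIM1, which tethers BMPs, had a log2 fold change of 1.75 and FSTL3, a follistatin relative, 1.06. FSTL1 had -3.46, and BMPER, a BMP-binding protein of the vessel wall, had 301 reads against 0, at least 97.6-fold lower. Of 31 tested intracellular regulators, 10 were higher and 13 lower (median -0.08). The 74.2% called is that of all genes (74.1%), and 22.6% differed at least 2-fold, against 34.6% of all genes. SMURF1, a ubiquitin ligase for BMP SMADs, had 1.67 and FKBP1A, which guards type I receptors, 0.97, whereas the SMAD4 deubiquitinase USP9X had -1.84 and ZNF423, a BMP SMAD cofactor, -5.78. By edgeR, the genes named from these 5 lists had adjusted p values of at most 1.76e-12, apart from 3.46e-10 for AMH and AMHR2.

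Position was compared as a feature that membership did not use. In 4 places a pair of members lies within 1 Mb, and in each the pair went in opposite directions. SMAD6 (chromosome 15, positions 66702228 to 66782848) fell and SMAD3 (67063763 to 67195195) rose, 280.9 kb apart. BMP7 (chromosome 20, positions 57168748 to 57266629) fell and PMEPA1 (57648392 to 57711536) rose, 381.8 kb apart. TGFBI (chromosome 5, positions 136028895 to 136063818) rose and SMAD5 (136132845 to 136188747) fell, 69.0 kb apart, and on chromosome 18 SMAD2 rose and SMAD7 fell, 988.7 kb apart.

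Neighbouring genes of any kind were summarised as the median log2 fold change of tested genes starting within 1 Mb. Of the 22 members with at least 2-fold difference and 3 or more such neighbours, 7 had the sign of their neighbours' median. The same share over all genes was not computed, so this count cannot be called few or many. It also depends on the window, as the median changed sign near some members at 500 kb. TGIF1 at 1.97 lay among 15 genes with a median of 1.67, and ID1 at 1.07 among 21 genes with 0.91, of which 17 were higher by edgeR. TGFBR3 at -3.07 lay among 10 genes with -1.41 (9 lower), and SMAD9 at -1.91 among 9 with -0.86 (1 higher, 8 lower). In contrast, the neighbours of BMP2 had a median of 0.23 (6 genes), those of BMP4 0.04 (8 genes) and those of ID4 0.84 (4 genes), beside falls of each of these members. A difference in copy number between cells was not measured in these data.

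**Figure D5:**
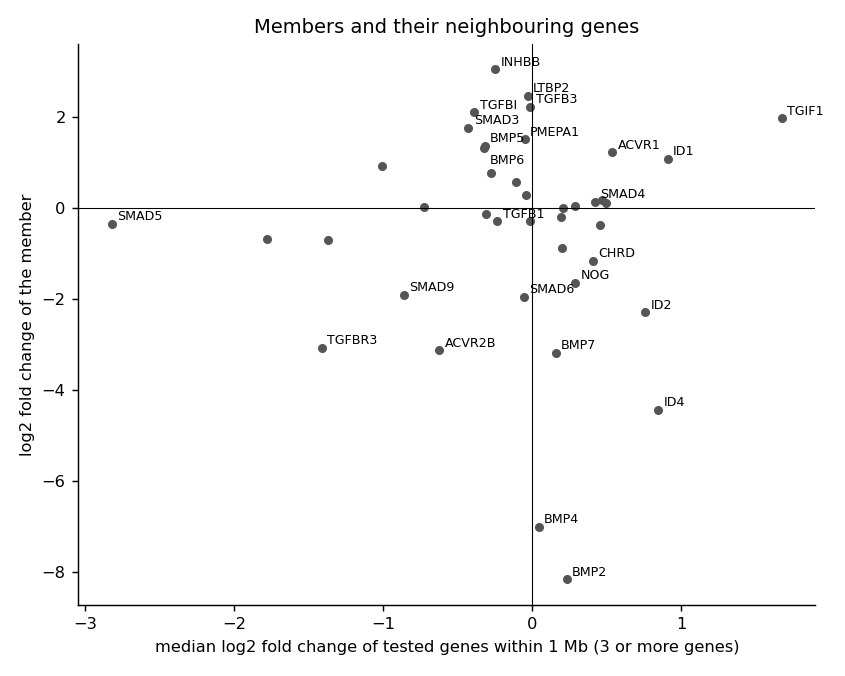
Log2 fold change of each tested member with at least 3 neighbours (41 members) against the median log2 fold change of tested genes starting within 1 Mb. Names mark members at 2-fold or more and SMAD4, SMAD5 and TGFB1. TGIF1 and ID1 lie above 0 on both axes, and BMP2 and BMP4 lie low near a neighbour median of 0.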

How the data were processed

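The authors deposited raw read counts per gene. GRCh38, STAR 2.7.2b and featureCounts 2.0.1 are named, beside cutadapt and FastQC, per the submitters' processing notes. An annotation release and a strand setting were not found in the sources used here, so genes that share exon bases with another gene in GENCODE 29 (14 of the 45 members) are uncertain to that extent, TGFB2 most, with 26.6% of its exon bases shared. After 45 second copies of pseudoautosomal genes were left out, 60623 genes remained. Counts were fitted over all 6 libraries with edgeR 4.0.16 in R 4.3.3 (filterByExpr, TMM factors, robust quasi-likelihood test, shSTN1 minus control, no covariate), with Benjamini-Hochberg adjustment over 17451 genes and a threshold of 0.05. CPM used TMM-scaled library sizes, each SE is that of the difference in mean log2 CPM with a prior count of 2, and intervals are from limma-voom (limma 3.58.1). Each SE rests on the libraries of that gene alone and can understate the error where they happened to agree. RPKM used the summed exon length in GENCODE 29. That release held 58516 of the 60623 genes, so the counts may rest on another release. Genes absent from it were left out as neighbours. DESeq2 1.42.0 was an alternative. The fit was run on simulated counts as a check of the code only. Few genes differed in them, unlike in these data, so that run says nothing about the calls here. Each library was separate from its replicates beyond sampling noise (2.88 to 8.06 as chi-square over its degrees of freedom). Ratio intervals and floors cover counting error only. Deviations of libraries with the same replicate number correlated at -0.0123, 0.0171 and -0.0337, so numbers were not taken as pairs.

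The members and lists were chosen with earlier results of these data known, and counts of members are descriptions. Members printed by library were those past the threshold with at least 2-fold difference and 5 CPM or more in the higher group, SMAD4, TGFBR2 and the most abundant member of each role. From each further list the 4 genes with the smallest adjusted p were named, except 2 that are not reported here. Other members are given by range. Promoters are from RefSeq, and 4 members (BMP2, BMP7, NOG and SKI) had no entry. Plots used matplotlib 3.10.9 (Python 3.11.15).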

Additional observations from a re-analysis of the deposited data

How the results depend on the processing

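Over the alternatives run (RLE and upper-quartile factors, no low-count filter, 1 CPM in 3 libraries, DESeq2, limma-voom, the replicate block, an adjusted p under 0.01, and each library left out), 16 to 17 members were called higher and 17 to 19 lower, with 11 to 13 and 11 to 12 at 2-fold. The calls that moved were those of LTBP3, ACVR2A and BMPR2, and FST was called lower where the filter let it in. BMPR2 was called lower with RLE factors (-0.2), upper-quartile factors (-0.23), no filter (-0.22), and without control replicate 3 (-0.30) or shSTN1 replicate 3 (-0.24). The replicate block gave 17 members higher and 17 lower and changed no call of a member. Factors moved the median of all genes by -0.0341 at most in size, on the log2 scale. Without shSTN1 replicate 3, 2 genes of ligand processing were called lower in place of 4, and the count was 2 to 5 over left-out libraries. With a window of 500 kb, among the members printed by library, the neighbours' median changed sign near ACVR1 (-2.46), BMPR2 (-0.10), ID2 (-0.0912), INHBB (0.64), TGFB1 (0.0692) and TGFB3 (0.30). Among the other members it also changed sign near BMPR1A, FST, LTBP1 and SMAD7. With 100 bases before the start, the order of members and all starts turned for GGCGCC. Without length, TGFB1 took 91.2% and 69.9% of its family and ID1 32.9% and 65.6%. Low counts limit INHBA, FST and GREM1.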
